A study of Arabidopsis thaliana with 40 samples.

Results

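The circadian clock genes described here are the 10 *Arabidopsis thaliana* genes *CCA1* (AT2G46830), *LHY* (AT1G01060), *RVE8* (AT3G09600), *PRR9* (AT2G46790), *PRR7* (AT5G02810), *PRR5* (AT5G24470), *TOC1* (AT5G61380), *GI* (AT1G22770), *ELF4* (AT2G40080) and *LUX* (AT3G46640). They were chosen by name, and each was found by its locus identifier among the 33601 gene rows of the deposited tables. Total RNA and smRNAs of 15 to 50 nt were sequenced from unopened flower buds of the wild type Col-0 and of 8 mutants, each lacking an *RDR* gene, *SGS3* or *RDM12*, with 2 libraries of each kind per group. Col-0 formed 2 such groups for each kind, 1 shared by the 7 mutants other than *rdr3* and 1 set beside *rdr3*. RDR proteins copy RNA into double-stranded RNA, from which smRNAs are cut, SGS3 is a cofactor of RDR6, and RDM12 works with RDR2. The alleles were *rdr1-1*, *rdr2-1*, *rdr3-1*, *rdr4-1*, *rdr5-1*, *rdr6-11*, *sgs3-11* and *rdm12-1*, so each gene was represented by a single mutant line. All plants were untreated, 30 days old and grown on soil at 22 °C with 16 h of light and 8 h of darkness. The hour of harvest, on which transcript levels of clock genes depend, is not given in the sources used here.

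The plant clock is a loop of transcription factors that repress or activate each other in turn through the day. The MYB factors CCA1 and LHY peak around dawn and repress genes of the evening, the PRR proteins follow one another from morning to night and repress *CCA1* and *LHY*, and the evening complex of ELF3, ELF4 and LUX closes the loop at night. Through GI and its partners the clock also sets the time of flowering. Many evening genes carry the evening element, a short promoter motif bound by CCA1, LHY and RVE8.

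Every level below is the authors' mean log2 CPM of a gene, that is the log2 of its counts per 1000000 counted reads (CPM), averaged over all libraries of a set. The tables of the 7 mutants other than *rdr3* hold the same mean. That it pools the 16 listed libraries of 8 genotypes, with Col-0 among them, is inferred from this identity and the sample labels. The *rdr3* tables hold another mean, over 4 libraries, 2 of *rdr3* and 2 of Col-0. Each gene therefore has 2 levels per strand and kind of RNA. A pooled level shows how abundant a clock transcript was in buds and cannot show a change in a mutant. No value per library was used, so no level has an SD and no test was made. In pooled buds, fewer cells of a type and less RNA per cell cannot be told apart.

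The tissue label was checked against markers in total RNA of the 16 libraries. The floral genes *SEP3*, *PI*, *AP3*, *AMS*, *AG* and *AP1* had log2 CPM between 3.24 and 4.91. Of 3 root hair markers, *EXPA7* and *RHD6* stood at the lowest value of the table, -1.85. The remaining root hair marker, *COBL9*, was detected at -0.26, above the median of all gene rows, -0.66. The photosynthesis genes *RBCS1A* and *CAB1* had log2 CPM of 8.25 and 8.15.

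The promoters of the clock genes were read from the RefSeq copy of the TAIR10 genome, from 250 bases before to 50 bases after the annotated start of each gene. The evening element, AAAATATCT read on both strands, was found in 4 of the 10 windows, those of *PRR9*, *PRR5*, *TOC1* and *LUX*, and in 2.82% of the windows of 27443 protein-coding genes. On the strand of the gene it was found only in *LUX*, against 1.53% of all windows. In *PRR9* the match began at base 26 after the start, within the transcribed part. The other matches are shown with 10 bases on each side because they are the letters by which morning MYB factors are known to bind evening genes. Sequences run 5′ to 3′ on the strand of the gene, the capitals mark the evening element, and AGATATTTT is its reverse complement.
*PRR5*, chr5:8358715-8358743, minus strand: gattttttctAGATATTTTcttttctcca
*TOC1*, chr5:24674802-24674830, plus strand: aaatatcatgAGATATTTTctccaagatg
*LUX*, chr3:17182979-17183007, plus strand: tagaagatctAAAATATCTagctaactcg

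These matches began at bases -187, -151 and -53 from the annotated starts of *PRR5*, *TOC1* and *LUX*. The core AATATCT, which every evening element contains, was found in 8 windows, all but those of *LHY* and *GI*, against 11.5% of all windows. AAAAATCT, the CCA1 binding site, was found on either strand in *PRR5* alone, against 7.88%. The G-box CACGTG, a palindrome bound by light-signalling bHLH and bZIP factors, was found in 6 windows, those of *CCA1*, *LHY*, *RVE8*, *PRR9*, *PRR7* and *LUX*, against 7.68%. In *RVE8* the match began at base 11 after the start, within the transcribed part. The matches of the paired morning factors *CCA1* and *LHY*, and of *PRR7*, which represses both, are shown with the G-box in capitals.
*CCA1*, chr2:19245388-19245413, plus strand: gtgtatcagaCACGTGtcgacaaact
*LHY*, chr1:37936-37961, minus strand: acaatatcacCACGTGtcgatctgcg
*PRR7*, chr5:642216-642241, minus strand: cccaccattaCACGTGtcagttcaaa

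They began at bases -193, -80 and -201. Of the clock genes outside the 10, 24 were examined as a further list, and their windows held the evening element in 5, its core in 7, the CCA1 binding site in 4 and the G-box in 8. A match describes letters in a window and is not a measured binding site.

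All 10 clock genes were transcribed in buds at a log2 CPM of 0 or more, both in the 16 libraries and in the 4 libraries of the *rdr3* set. Among all gene rows, 43.1% reached that level in the first set and 37.1% in the second. The levels ran from 0.43 for *PRR9* to 4.30 for *LHY* in the 16 libraries, with a median of 2.97, and from 0.35 for *PRR9* to 3.47 for *LHY* in the *rdr3* set, with a median of 2.20. The median of all gene rows was -0.66 in the first set and -1.01 in the second. To compare genes with each other, the levels were divided by the summed length of the exons in the RefSeq annotation, giving CPM per kb. On that scale 7 of the 10 stood above the median of the 14337 genes with a log2 CPM of 0 or more and an exon length, which was 0.76 on the log2 scale, and *LUX*, *RVE8* and *PRR9* stood below it.

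**Figure D1:**
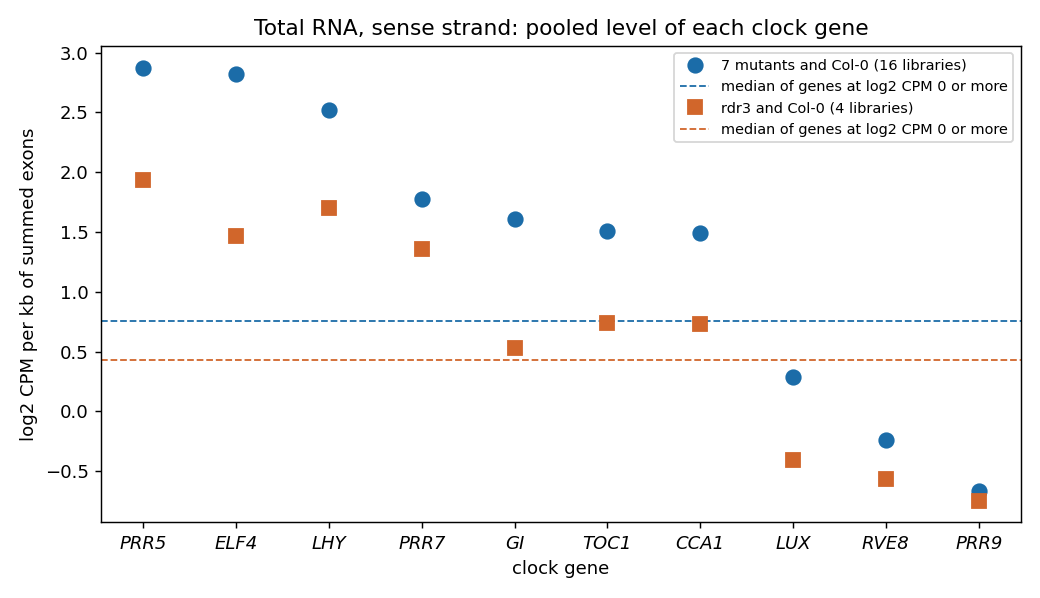
Total RNA on the sense strand, log2 CPM per kb of summed exons (vertical axis) for each clock gene (horizontal axis), as the pooled mean of 16 libraries (circles) and of the 4 libraries of the *rdr3* set (squares); dashed lines are the medians of all genes with a log2 CPM of 0 or more in each set. *PRR5* is highest and *PRR9* lowest in both sets, and every square lies below its circle.

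Of the morning MYB genes, *LHY* was the most abundant. In the 16 libraries it had 5.74 CPM per kb, its close relative *CCA1* had 2.81, and *RVE8*, which activates evening genes, had 0.85. The same genes had 3.24, 1.66 and 0.68 CPM per kb in the *rdr3* set. The *LHY* level was thus 2.04 times that of *CCA1* in the first set and 1.96 times in the second. It was 6.79 and 4.79 times the *RVE8* level.

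The *PRR* genes spanned the whole range of the 10. *PRR5* had 7.34 CPM per kb, *PRR7* 3.43, *TOC1* 2.85 and *PRR9* 0.63 in the 16 libraries. They had 3.82, 2.56, 1.67 and 0.60 CPM per kb in the *rdr3* set, in the same order. *PRR9*, the first of the series to be expressed after dawn in seedlings, was the lowest of the 10 in both sets. *PRR5* stood 11.6 times above it in the 16 libraries and 6.41 times in the *rdr3* set. *PRR9* and *CCA1* lie close together on chromosome 2, with 10411 bases between them, and *CCA1* was the more abundant of the pair per kb.

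*GI*, which encodes a large protein that stabilises the blue light receptor ZTL and acts in the timing of flowering, had 3.06 CPM per kb in the 16 libraries and 1.44 in the *rdr3* set. Of the evening complex, *ELF4* had 7.09 CPM per kb and *LUX*, its MYB-like DNA-binding member, 1.22. The values were 2.76 and 0.76 CPM per kb in the *rdr3* set. The *ELF4* level was 5.81 times that of *LUX* in the first set and 3.65 times in the second.

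Neighbours in this order often lay close together. In the 16 libraries the ratio of *PRR5* to *ELF4* was 1.04, of *PRR7* to *GI* 1.12, of *GI* to *TOC1* 1.07 and of *TOC1* to *CCA1* 1.01, and no spread between libraries was at hand to separate them. Wider steps lay between *LHY* and *PRR7*, 1.68 times, and between *CCA1* and *LUX*, 2.31 times. The order also depends on the gene models. The authors counted reads on TAIR10 transcripts, whereas the lengths come from the RefSeq annotation, so counts and lengths can rest on different models. The RefSeq model of *PRR5* has exons of 1677 bases, all of them coding, whereas that of *LUX* has exons of 3916 bases, of which 975 are coding. The *LUX* model overlaps AT3G46650, a gene on the opposite strand, by 1507 bases. With the coding length in place of the exons, *ELF4* took rank 1, *LHY* rank 2 and *PRR5* rank 3, *LUX* moved from rank 8 to rank 5 and *GI* from rank 5 to rank 8. Of the ratios given above, some shrank with the coding length and others grew. Those of *ELF4* to *LUX* and of *PRR5* to *PRR9* shrank, and that of *LHY* to *CCA1* grew. On the log2 scale *ELF4* and *LUX* had 2.83 and 0.29 per kb of exons but 3.71 and 2.29 per kb of coding length. *PRR5* and *PRR9* had 2.88 and -0.66 per kb of exons and 2.88 and -0.06 per kb of coding length. *LHY* and *CCA1* had 2.52 and 1.49 per kb of exons but 3.34 and 2.07 per kb of coding length. *RVE8* and *PRR9* stayed last under coding length, gene span and summed exons.

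Of the 24 further clock genes, 22 had a log2 CPM of 0 or more in the 16 libraries and 20 in the *rdr3* set. Their median log2 CPM was 1.66 and 0.94. Per kb, *TIC* was highest at 7.49 CPM, followed by *LNK2*, a coactivator that works with RVE8, at 5.99 and by *FKF1*, a blue light receptor that acts with GI, at 4.07. The lowest were *RVE3* at 0.36, *RVE7* at 0.38 and *NOX*, the close relative of *LUX*, at 0.51 CPM per kb. *RVE4*, which acts beside *RVE8*, had 3.43 CPM per kb and *RVE6* had 0.96, so that *RVE8* was not the most abundant of the 3. *ELF3*, the remaining member of the evening complex, had 2.23, *ZTL*, the partner of GI, 2.75, and *PRR3*, the remaining gene of the *PRR* family, 0.84 CPM per kb.

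Antisense transcripts of the clock genes were near the limit of the tables. In total RNA of the 16 libraries, 5 of the 10 had an antisense level above the lowest value, -1.77, against 28.7% of all gene rows. These were *PRR5* at a log2 CPM of -1.51, *LHY* at -1.69, and *TOC1*, *ELF4* and *LUX* at -1.73. In the *rdr3* set, where the lowest value was -2.73 and 41.4% of gene rows lay above it, there were 4, with *PRR5* at -2.14, *LHY* and *LUX* at -2.41 and *CCA1* at -2.57. *PRR5*, *LHY* and *LUX* were above the lowest value in both sets. No clock gene reached an antisense log2 CPM of 0, a level reached by 0.908% of gene rows in the 16 libraries. The antisense reads of *LUX* can include transcripts of AT3G46650, which overlaps it.

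**Figure D2:**
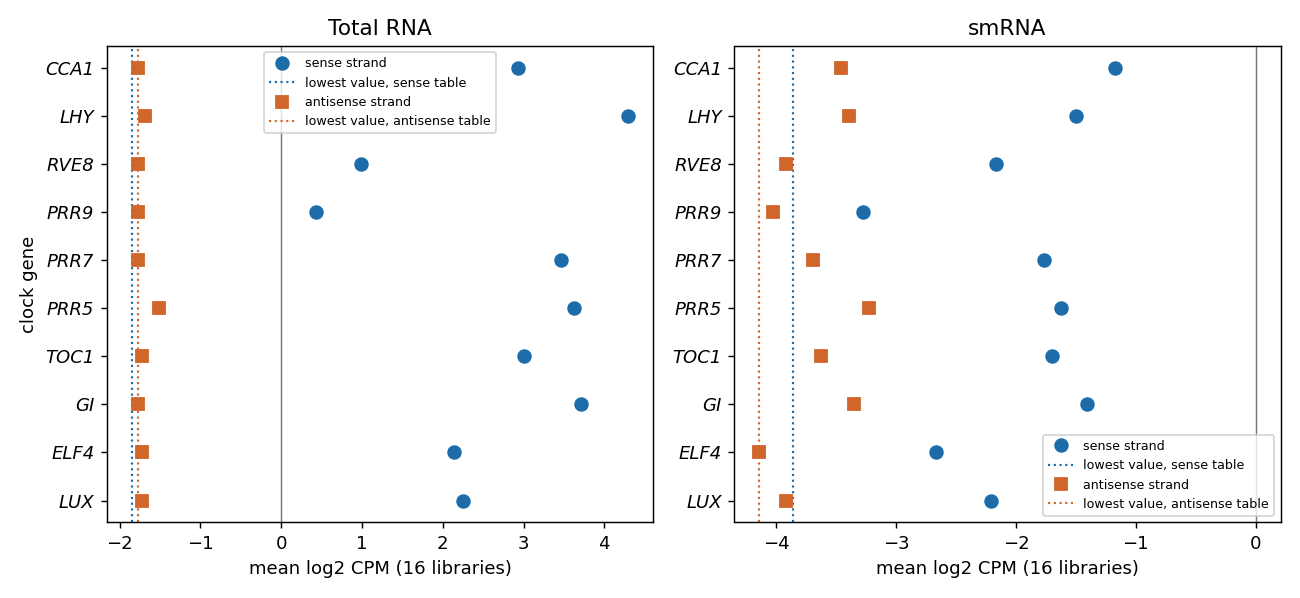
Mean log2 CPM over 16 libraries (horizontal axes) of each clock gene (vertical axis) in total RNA (left) and smRNA (right), on the sense (circles) and antisense (squares) strand; dotted lines are the lowest values of the tables and the grey line is a log2 CPM of 0. Antisense total RNA lies at or near the lowest value of -1.77 for every gene, and every smRNA level is below 0.

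smRNAs were counted for every clock gene on the sense strand in the 16 libraries, with log2 CPM between -3.27 and -1.17. Of the morning genes, *CCA1* had a sense smRNA log2 CPM of -1.17, *LHY* of -1.50 and *RVE8* of -2.16. *PRR5* had -1.62, *TOC1* -1.70, *PRR7* -1.76, *PRR9* -3.27, *GI* -1.40, *LUX* -2.21 and *ELF4* -2.66. The median of all gene rows was -2.96, so 9 of the 10 lay above it and *PRR9* below it. No clock gene reached 0 on the sense strand, as 7.69% of gene rows did, or on the antisense strand, as 4.92% did, and with shares this small a count of 0 in 10 is near the background. Per kb of summed exons, *ELF4* had the highest sense smRNA level at -1.97 on the log2 scale, followed by *PRR5* at -2.37 and *CCA1* at -2.62, and *PRR9* had the lowest at -4.37. *ELF4* was also highest per kb in the *rdr3* set, at -4.01, but this rank follows from its length. Its log2 CPM there was only 0.58 above the lowest value. Its exons, 619 bases, are the shortest of the 10, and a gene of that length without reads would also rank first. *PRR9* stood at the lowest log2 CPM of the *rdr3* table, -5.28. Reads mapped to several places, which HTSeq counts for no gene, made up 75.7% of the summed CPM of the smRNA sense table of the 16 libraries and 97.6% in the *rdr3* set.

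On the antisense strand the smRNA levels ran from -3.23 for *PRR5* down to -4.14 for *ELF4*, which stood at the lowest value of the table. The sense level was higher than the antisense level for all 10 clock genes in the 16 libraries, by a median of 1.82 on the log2 scale. The same was true of 97.4% of the 14337 transcribed genes, with a median of 1.16, so a higher sense level is not particular to clock genes. The tables of the strands were normalized separately, and their lowest values differ, -3.86 for sense and -4.14 for antisense. A gene without smRNA reads on either strand therefore also counts as higher on the sense strand. No such comparison is given for the *rdr3* set, where 1 of the 10 sense levels and 3 of the 10 antisense levels stood at the lowest values of their tables.

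Clock genes with more transcript had more smRNA. Across the 10, Spearman's rho of the sense smRNA level with the total RNA level was 0.76. It was 0.81 across the 24 further clock genes and 0.79 across the 14337 transcribed genes. With both levels taken per kb, rho was 0.67 for the 10, 0.77 for the further genes and 0.77 for all transcribed genes. For the antisense smRNA level, rho was 0.84 for the 10, 0.38 for the further genes and 0.26 for all transcribed genes. The antisense levels of the 10 lay at most 0.91 above the lowest value of the table, so their ranks rest on values near that limit. These are descriptions across genes, which share libraries, gene length and mapping, and genes are not independent replicates. *RVE2* was the exception among the further genes, with an antisense smRNA level of -0.23 above its sense level of -1.67, and was named after its values had been seen. *TIC*, with a smRNA level of 1.00 on the sense strand, was the only clock gene of either list above 0.

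**Figure D3:**
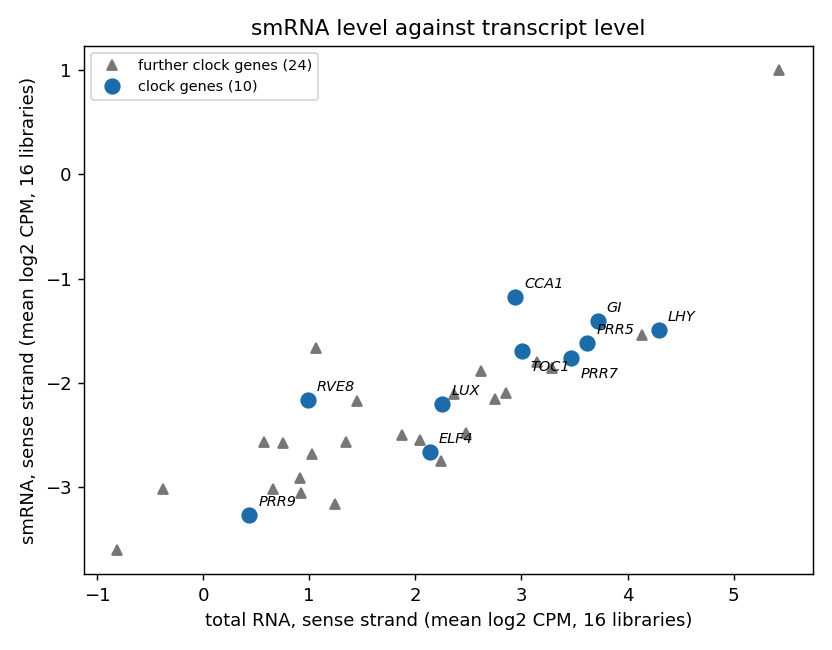
Mean log2 CPM of sense smRNA (vertical axis) against that of sense total RNA (horizontal axis), over 16 libraries each, for the 10 clock genes (circles, named) and 24 further clock genes (triangles). The highest triangle is *TIC* at a smRNA level of 1.00; the circles run from *PRR9* at -3.27 to *CCA1* at -1.17, levels that are not corrected for gene length.

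smRNAs were also counted by the authors in bins of 500 nt, whatever the gene or strand. Of the 69 bins whose centre lay within a clock gene, only 1 exceeded the upper quartile of the 238295 nuclear bins, -1.80, and 23 lay below the nuclear median of -3.57. The exception was a bin of *CCA1*, chr2:19248001-19248500, with a log2 CPM of 0.19 and a percentile of 84.0, centred 2659.5 nt after the start. The other 6 bins of *CCA1* had at most -2.92. The same bin had -3.33 in the *rdr3* set, where another bin of *CCA1*, chr2:19246501-19247000, was the highest at -2.44, against -3.19 in the 16 libraries. The RefSeq annotation lists no gene but *CCA1* there.

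Within 1000 nt before the starts lay the centres of 20 bins, with a median of -3.84. A pair of them stood far above the rest. The bin before *PRR7*, chr5:642001-642500, and the bin before *RVE8*, chr3:2945501-2946000, had the same log2 CPM of 10.11, a percentile of 99.94 among nuclear bins. They had 2.85 and 2.81 in the *rdr3* set. For these bins, as for those of *CCA1*, the sets are different libraries normalized separately. The lowest bin value was -4.19 in the 16 libraries and -5.36 in the *rdr3* set. Genotype and library set cannot be told apart for the bins. Each bin holds a gene for a serine tRNA on the minus strand. AT5G02815, at chr5:642400-642481, lies 370 nt before the start of *PRR7*, and AT3G09595, at chr3:2945696-2945777, lies 462 nt before the start of *RVE8*. Both tRNA genes are 82 bases long and identical, and no further exact copy was found in the nuclear chromosomes. The authors allowed a read to align in many places, so the same reads can be counted in both bins. Which of the tRNA genes such reads come from cannot be told. The first 30 bases of both tRNA genes are shown because the bins with the most smRNA in or before the 10 genes hold this sequence.
AT5G02815 beside *PRR7*: gtcgatatgtccgagtggttaaggagatag
AT3G09595 beside *RVE8*: gtcgatatgtccgagtggttaaggagatag

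High bins were usual for tRNA genes. Of the 666 nuclear bins that hold part of one, 660 exceeded the upper quartile, with a median of 7.02, against 24.8% of the other nuclear bins. In the gene tables, which leave out reads mapped to several places, the sense smRNA level was -3.10 for AT5G02815 and -3.67 for AT3G09595. The levels of *PRR7* and *RVE8* themselves, -1.76 and -2.16, lay within the range of the other 8, and every bin within either gene was at -2.39 or lower.

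**Figure D4:**
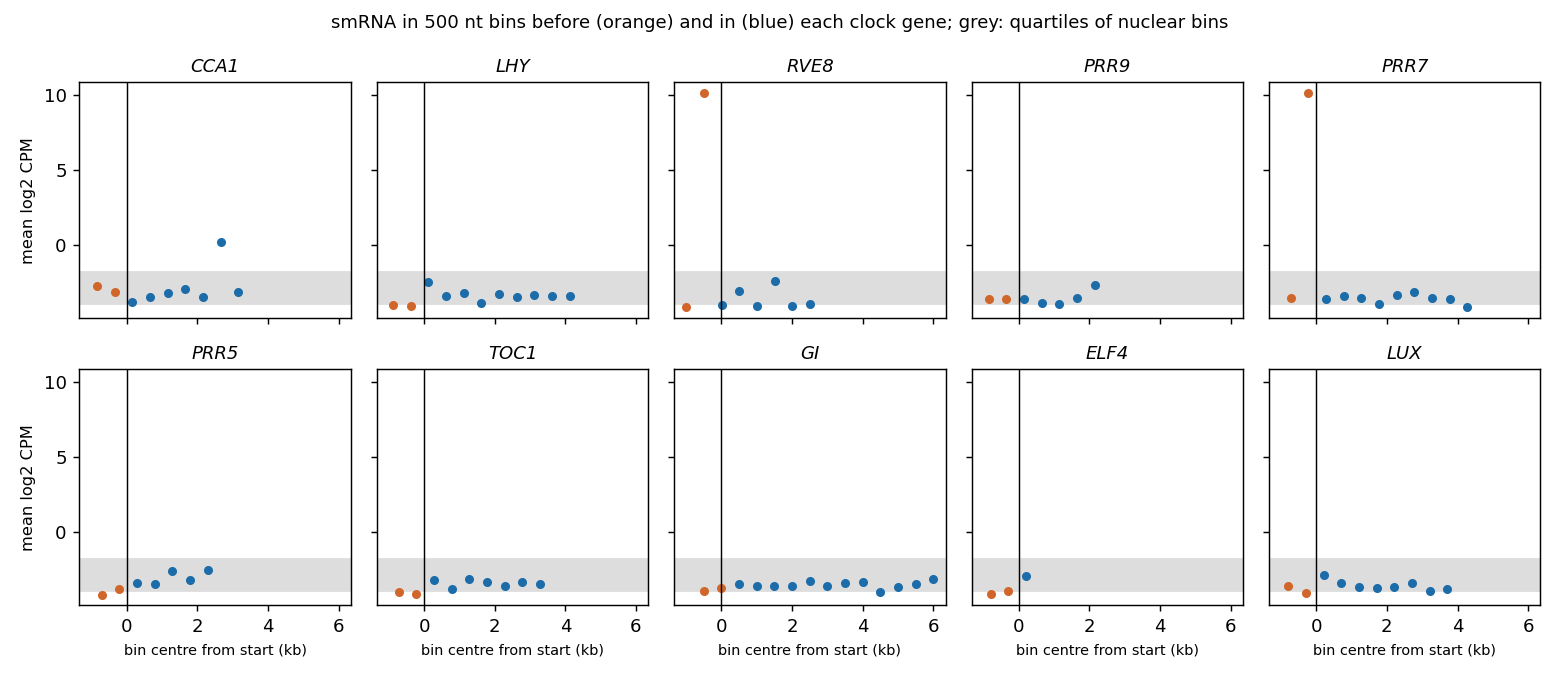
Mean log2 CPM of smRNAs over 16 libraries (vertical axes) in bins of 500 nt against the distance of the bin centre from the annotated start in kb (horizontal axes), before the start (orange) and within the gene (blue), for each clock gene; the grey band spans the quartiles of nuclear bins, -3.90 to -1.80. The 2 points at 10.11 are the bins with a serine tRNA gene before *RVE8* and *PRR7*, and the point at 0.19 is the bin of *CCA1*.

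The levels of the *rdr3* set were lower than those of the 16 libraries for all 10 clock genes in total RNA, as for 95.5% of the 11666 genes with a log2 CPM of 0 or more in both. The sets were sequenced as different libraries and normalized separately, so genotype and library set cannot be told apart here. The difference of log2 CPM was -1.36 for *ELF4*, -1.08 for *GI*, -0.94 for *PRR5*, -0.82 for *LHY*, -0.77 for *TOC1*, -0.76 for *CCA1* and -0.69 for *LUX*. It was -0.42 for *PRR7*, -0.32 for *RVE8* and -0.08 for *PRR9*. The median was -0.77 for the clock genes, -0.76 for the 24 further genes and -0.66 for all 11666 genes, whose quartiles were -0.87 and -0.43. *ELF4* lay near the lower edge, with 1.42% of the genes below it, and *PRR9* near the upper edge, with 93.7% below it.

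The share of the summed CPM that fell on genes and transposable elements also differed, at 18.5% in the 16 libraries and 12.6% in the *rdr3* set. These sums are of pooled CPM, not of reads. They include the lowest value for features without reads, 39679 in the 16 libraries and 25651 in the *rdr3* set. With the CPM on genes and transposable elements scaled to 1000000, 7 of the 10 clock genes were lower in the *rdr3* set. *PRR7*, *RVE8* and *PRR9* were higher, by 0.11, 0.22 and 0.45 on the log2 scale. On that scale *ELF4* differed by -0.83, *GI* by -0.55 and *PRR5* by -0.40, against a median of -0.12 for all 11666 genes. With 1 pooled value per set, these differences have no replicate check.

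**Figure D5:**
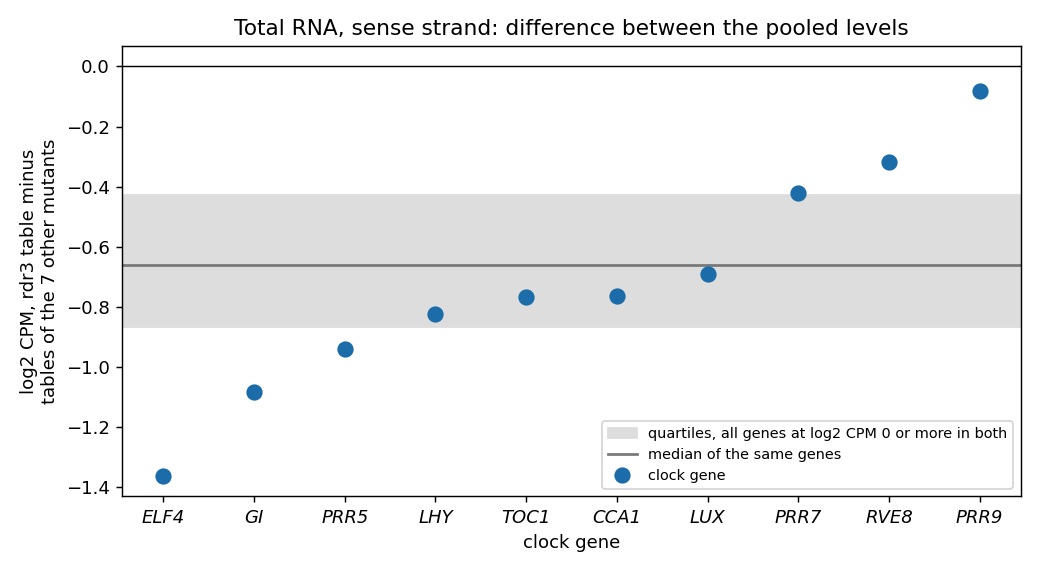
Difference of log2 CPM in total RNA on the sense strand, *rdr3* set minus 16 libraries (vertical axis), for each clock gene (horizontal axis); the grey band and line are the quartiles and the median, -0.66, of 11666 genes. *ELF4* is lowest at -1.36 and *PRR9* highest at -0.08. Scaled to the CPM on genes and transposable elements, *PRR7*, *RVE8* and *PRR9* would lie above 0.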

How the data were processed

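Total RNA and smRNA libraries of 30-day unopened flower buds were sequenced by the authors, who trimmed reads with cutadapt, mapped them to TAIR10 with TopHat, counted them with HTSeq on each strand of genes and transposable elements and with bedtools in bins of 500 nt, and ran edgeR on mutant and Col-0 libraries. They deposited 40 tables, 5 per mutant. Each deposited table holds a mean log2 CPM over all libraries compared, and 3 columns of the authors' own comparison, a log2 fold change, a p-value and an FDR. Those 3 columns were not used, so differences of a mutant from Col-0, and the check of the mutated genes, are not reported here. The tables used hold 0 columns per library, so no depth per library, SD, interval or test is given. The mean log2 CPM was identical in the 7 tables that share Col-0 libraries. CPM include HTSeq's 5 totals of unassigned reads, which took 81.5% of the summed CPM in sense total RNA and were left out of ranks and medians. A gene without reads takes the lowest value of its table.

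Of 33601 gene rows, 32834 matched a RefSeq locus tag of TAIR10.1 and 32826 had exons. The number of 500 nt bins per chromosome was the number that the RefSeq chromosome lengths give. Levels of different genes were compared as log2 CPM minus the log2 of summed exon length in kb. Bins were assigned to a gene by their centre. All 10 clock genes are named, and of 24 further ones the highest 3 and lowest 3 per kb with *RVE4*, *RVE6*, *PRR3*, *NOX*, *ELF3* and *ZTL*, of which *NOX* is also among the lowest. *RVE2* was added after its values had been seen. The members and lists were chosen with earlier results of these data known. In total RNA, the *rdr3* labels name controls by numbers that no listed Col-0 library has, so that these controls are the 2 remaining Col-0 libraries is inferred. Percentiles and motif searches were checked on small made-up inputs. Python 3.11.15, pandas 2.3.3, numpy 2.4.6 and matplotlib 3.10.9 were used.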

Additional observations from a re-analysis of the deposited data

How the results depend on the processing

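The median log2 CPM of the 10 clock genes was 2.97 in the 16 libraries and 2.20 in the *rdr3* table. With the CPM on genes and transposable elements scaled to 1000000, it was 5.36 in the 16 libraries, a scale added after the values were seen. The evening element was found in 4 promoter windows, in 8 as its core and in 1 on the strand of the gene. All 10 genes lay above the median of gene rows, also with transposable elements included and in the *rdr3* table, and 8 did among rows with a log2 CPM of 0 or more. Of the 45 pairs in the order per kb, 38 kept their order with coding length, 41 with gene span and 42 in the *rdr3* table, the last added after the values were seen. Counts above the median were 5, 5 and 4 for antisense total RNA and 9, 6, 8 and 8 for smRNA across their settings. Leaving out each replicate and a second normalization could not be run, and no paired analysis was possible because no column per library was used. Each library's depth is not in the tables used, so the precision of low levels, antisense and smRNA above all, is unknown.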
